A study of Homo sapiens with 60 samples.

Results

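Cells held for 16 h at 0.2 nM of a PERK-activating dimerizer were compared with cells held for the same time at 0.01 nM, using 3 libraries at each dose, 6 of the 60 in the series, chosen by the dose and time in their labels. All were U2OS, an established human osteosarcoma cell line with the genotype label WT, stably expressing Dmr-PERK, in which the kinase domain of mouse PERK is joined to the DmrB dimerization domain. The ligand AP20187, called the dimerizer, brings the fusion proteins together and switches the kinase on. The line also kept its own EIF2AK3, the gene of PERK, and the labels name neither the promoter that drives the construct nor the number of clones. The low dose was chosen by the study for little loss of protein synthesis with ATF4 still made, and the higher dose for a partial loss. The latter is written 0.2 nM here, rounded to 1 decimal from the sample labels. A pair of further groups served as reference levels: untreated set 1 (3 libraries) and untreated set 2 (3 libraries), both of the same line and labelled 0 h. No untreated culture was collected in parallel at 16 h, so a level set against the untreated libraries carries time in culture as well as dimerizer. The comparison between doses at 16 h shares its time, and asks what the stronger signal adds to the weaker one late in the response.

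PERK is one of the kinases that phosphorylate eIF2 alpha, the step that starts the integrated stress response (ISR). Phosphorylated eIF2 alpha slows most translation but lets ATF4 mRNA be translated better. ATF4 protein pairs with C/EBP factors and binds the C/EBP-ATF response element, and its known targets serve amino acid supply, tRNA charging, redox balance and feedback on the pathway itself. Among the feedback genes, PPP1R15A encodes the phosphatase subunit GADD34, which returns eIF2 alpha to its unphosphorylated form, and TRIB3 encodes a pseudokinase that restrains ATF4.

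The 6 libraries held 6210019 to 8427833 counts each, and the ranges of the doses overlapped. A count of 0 in a library allowed up to 3 counts, which is 0.356 to 0.483 CPM (counts scaled by the library's total). This floor uses unscaled totals, whereas the CPM of genes use totals scaled by the TMM normalization, so the scales differ. Mitochondrially encoded mRNAs took 3.92% to 4.13% of the counts at 0.2 nM and 4.61% to 4.73% at 0.01 nM, and their part in other differences was not tested. In untreated set 1 they took 8.38% to 9.54%, so that set stood apart. The coefficient of variation among 3 replicates, taken as the median of genes above 20 CPM, was 4.17% at 0.2 nM and 4.37% at 0.01 nM. The labels state triplicates without saying whether these were separate cultures, so the p-values rest on a spread between libraries that may be technical only. VIM, a mesenchymal marker, stood at 1800 to 1840 CPM at 0.2 nM and 2540 to 2600 CPM at 0.01 nM, and RUNX2 of the bone lineage at 29.7 to 42.8 CPM over all 6 libraries, while SP7 and TWIST1 had no count in any of the 6. The summed level of 8 blood and immune markers was 2.77 to 7.52 CPM, with CD3E, HBB and HBA1 at 0 counts. Endothelial markers summed to 9.51 to 13.4 CPM. Epithelial markers summed to 603 to 625 CPM at 0.2 nM and 671 to 701 CPM at 0.01 nM, and most of that sum was KRT18, at 456 to 481 CPM.

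The letters upstream of core ISR and amino acid genes are shown first. These lists were made of known genes of the pathway, so their share of matches is not an independent test. The RefSeq promoter table (GRCh38.p14) matched 41 of the 50 genes of the core ISR and amino acid lists. For each gene only the window listed first under its symbol was used, and any other starts were not searched. Its windows run from 250 bases before to 50 bases after the start, and 12 of these 41 windows (29.3%) held TGATGNAAN, the letters searched here for the C/EBP-ATF response element, on either strand. Over all 35116 windows the share was 3.61%. A match is a description of letters and not evidence of binding. The 4 called genes with a match and the largest difference between the doses are ATF3, CHAC1, GOT1 and HERPUD1, with the 250 bases before the start printed 5′ to 3′ on the gene's strand and the match in capitals. ATF3 has it at -191 to -183 from the start, in the window at chr1:212565157-212565406 on the plus strand. CHAC1 has it on the opposite strand at -210 to -202, in chr15:40953221-40953470 on the plus strand. GOT1 has it on the opposite strand at -199 to -191, in chr10:99430625-99430874 on the minus strand. HERPUD1 has it on the opposite strand at -177 to -169, in chr16:56931892-56932141 on the plus strand.
ATF3: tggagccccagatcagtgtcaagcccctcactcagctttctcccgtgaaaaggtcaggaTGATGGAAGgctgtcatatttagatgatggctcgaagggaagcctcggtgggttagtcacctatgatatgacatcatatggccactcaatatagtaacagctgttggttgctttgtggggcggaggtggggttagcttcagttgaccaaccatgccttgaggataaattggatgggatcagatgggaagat
CHAC1: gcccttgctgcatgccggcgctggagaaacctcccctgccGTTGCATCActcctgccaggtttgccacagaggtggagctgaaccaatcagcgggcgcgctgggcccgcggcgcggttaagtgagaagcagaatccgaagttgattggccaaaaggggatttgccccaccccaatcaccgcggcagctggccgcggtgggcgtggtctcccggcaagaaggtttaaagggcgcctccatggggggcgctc
GOT1: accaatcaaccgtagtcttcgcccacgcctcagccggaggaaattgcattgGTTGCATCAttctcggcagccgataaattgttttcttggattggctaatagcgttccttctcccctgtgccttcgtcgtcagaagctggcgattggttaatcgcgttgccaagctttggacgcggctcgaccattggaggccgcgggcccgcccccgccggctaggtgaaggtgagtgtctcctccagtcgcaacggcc
HERPUD1: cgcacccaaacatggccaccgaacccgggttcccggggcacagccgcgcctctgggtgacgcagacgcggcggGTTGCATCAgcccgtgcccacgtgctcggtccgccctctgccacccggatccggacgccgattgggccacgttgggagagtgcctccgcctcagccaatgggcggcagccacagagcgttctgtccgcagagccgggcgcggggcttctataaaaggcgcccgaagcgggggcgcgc

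Of 18040 genes tested, 8095 (44.9%) differed between 0.2 and 0.01 nM at an adjusted p under 0.05 (edgeR quasi-likelihood test, Benjamini-Hochberg adjustment). Of these, 4243 (23.5% of those tested) were higher at 0.2 nM and 3852 (21.4%) were lower. At least a 2-fold change was seen in 390 genes that were higher (2.16%) and in 834 that were lower (4.62%), so the larger changes were more often losses. The replicates were close enough that changes of well under 2-fold passed the test, and the 3 values of one dose did not overlap those of the other in 9261 genes (51.3%; 26.8% with the stronger dose higher and 24.6% with it lower). The median log2 fold change over all genes was 0.01. Counts of list members at 16 h below stand against these shares of all genes, 23.5% higher and 21.4% lower. Every gene described below as higher, lower, risen or fallen passed that threshold, log2 fold changes are 0.2 minus 0.01 nM at 16 h unless stated, and each group has n = 3.

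**Figure D1:**
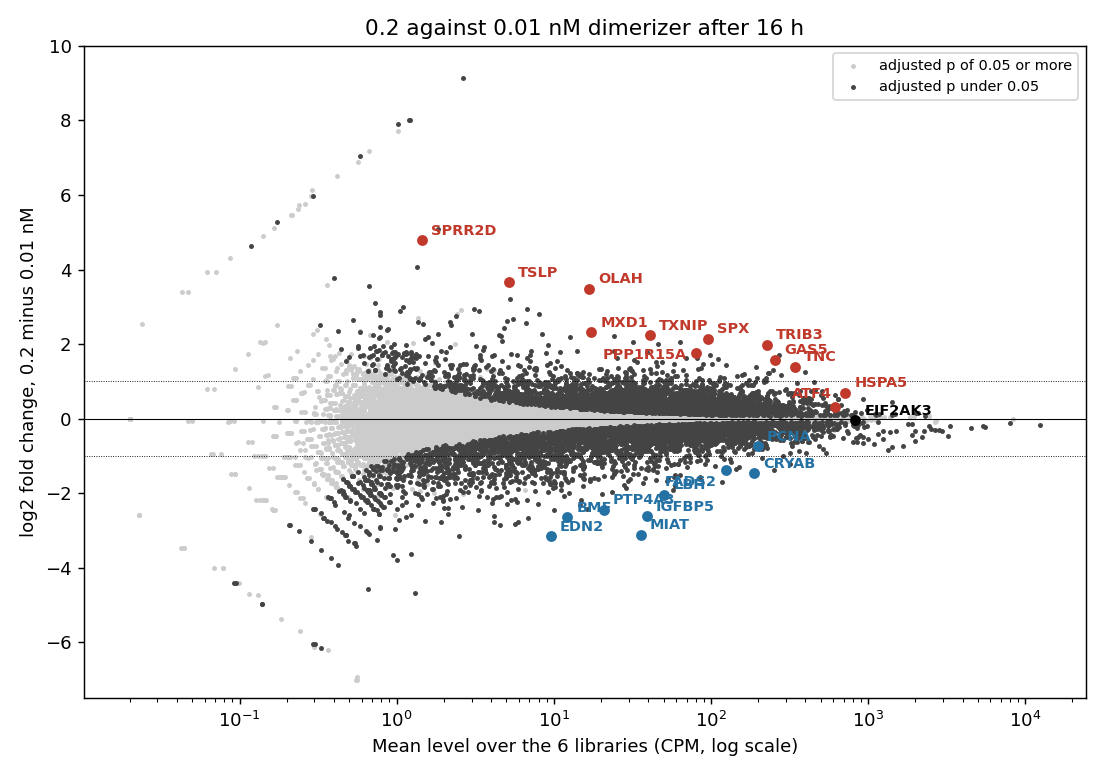
Log2 fold change between 0.2 and 0.01 nM at 16 h (vertical axis) against the mean level over the 6 libraries in CPM (horizontal axis, log scale), one point per gene tested, with dark points at adjusted p under 0.05 and dotted lines at 2-fold. ATF4 lies close to 0 at a high level, TRIB3 and PPP1R15A lie well above it, and MIAT and IGFBP5 are among the lowest abundant genes.

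The core of the ISR was stronger at 0.2 nM. Of 25 core ISR genes tested, 24 were higher, none was lower, and 11 were at least 2-fold higher, with a median log2 fold change of 0.90. The exception, JDP2, a dimerization partner of AP-1 factors, differed by 0.14 and did not pass. Against untreated set 1 the median of the list was 1.77 at 0.2 nM and 1.08 at 0.01 nM, so the weaker dose already held part of this program at 16 h.

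TRIB3 (chr20:362835-397559, plus strand) stood at 353, 380 and 353 CPM at 0.2 nM and at 88.7, 83.2 and 103 CPM at 0.01 nM. Its means in untreated sets 1 and 2 were 27.5 and 23.3 CPM. Every library at the stronger dose was above every library at the weaker one, which in turn lay above untreated. The log2 fold change was 1.99 ± 0.07 (SE; edgeR adjusted p = 5.4e-32).

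ATF4 mRNA itself (chr22:39519695-39522685, plus strand), which is controlled chiefly at translation, differed much less. It was at 700, 660 and 686 CPM at 0.2 nM and at 572, 537 and 547 CPM at 0.01 nM. The groups did not overlap, and the log2 fold change was 0.30 ± 0.03. Its C/EBP partners CEBPG and CEBPB differed more, by 1.03 and 1.10.

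DDIT3 encodes CHOP, a transcription factor tied to the later, death-linked side of the response. DDIT3 was at 65.6, 65.2 and 69.5 CPM at 0.2 nM and at 24.3, 21.9 and 23.1 CPM at 0.01 nM, a log2 fold change of 1.53 ± 0.10. PPP1R15A (chr19:48872392-48876057, plus strand) was at 127, 124 and 124 CPM against 35.8, 37.5 and 37.8 CPM, a log2 fold change of 1.75 ± 0.07. Both genes were lower at 0.01 nM than in untreated set 1, where DDIT3 averaged 39.3 CPM and PPP1R15A 128 CPM. ATF3, another transcription factor of the pathway and also an early response gene, was at 98.4, 91.0 and 94.1 CPM against 38.9, 37.9 and 38.6 CPM, a log2 fold change of 1.30 ± 0.11. The ATF3 mean in untreated set 1 was 701 CPM and in set 2 was 353 CPM, above both doses. For these 3 genes the contrast between doses was therefore a rise relative to the weaker dose and not a level above that untreated set, except for DDIT3, where 0.2 nM lay above untreated set 1 by 0.76.

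CHAC1, which degrades glutathione, was at 73.2, 75.5 and 79.2 CPM at 0.2 nM and at 37.7, 31.7 and 36.7 CPM at 0.01 nM. Untreated set 1 averaged 5.67 CPM, so both doses were well above it. The log2 fold change between doses was 1.10 ± 0.07. STC2, a secreted glycoprotein, was at 7.81, 9.39 and 9.60 CPM against 2.42, 3.19 and 2.52 CPM (log2 fold change 1.72), but on the log2(TPM + 1) scale its difference was 0.56 with a limma adjusted p of 0.075, so its call depended on the unit.

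**Figure D2:**
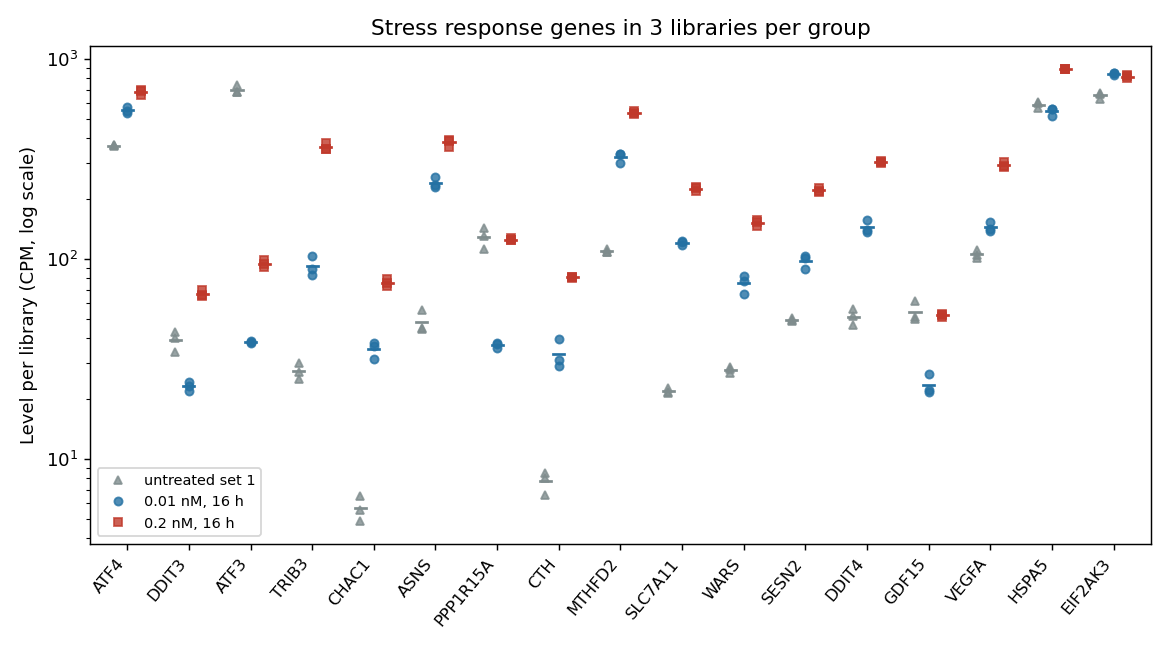
Level of 17 stress response genes in each library (CPM, log scale) for untreated set 1 (triangles), 0.01 nM at 16 h (circles) and 0.2 nM at 16 h (squares), with short lines at the means of 3 libraries. TRIB3 rises from untreated through 0.01 to 0.2 nM, PPP1R15A and ATF3 are lowest at 0.01 nM, and EIF2AK3 stays at 803 to 850 CPM over both doses.

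The kinases that feed the pathway differed little. EIF2AK3 was at 803, 825 and 815 CPM at 0.2 nM and at 846, 850 and 830 CPM at 0.01 nM. The log2 fold change was -0.05 ± 0.03 (edgeR adjusted p = 0.24); in a fit of the 6 libraries alone it was -0.08 with an adjusted p of 0.012. Whether reads of the mouse kinase domain entered this count was not tested. Of 8 genes of the eIF2 alpha kinases, eIF2 alpha itself and its phosphatase, 3 were higher and none was lower: PPP1R15A, PPP1R15B, the constitutive phosphatase partner, by 0.43, and EIF2S1, which encodes eIF2 alpha, by 0.32. The other kinases EIF2AK1, EIF2AK2 and EIF2AK4 differed by 0.02 to 0.06 and did not pass.

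Amino acid synthesis was raised further by the stronger dose. Of 19 genes of amino acid synthesis and one-carbon metabolism, 16 were higher and 2 were lower, with a median log2 fold change of 0.54. CTH, which makes cysteine from cystathionine, was at 81.3, 81.2 and 80.1 CPM at 0.2 nM and at 31.2, 29.1 and 39.8 CPM at 0.01 nM, a log2 fold change of 1.29 ± 0.07. The 0.2 nM values were tightly grouped and more than 2-fold above the other dose. GOT1, a transaminase of aspartate, rose by 0.95, ALDH1L2 of mitochondrial folate metabolism by 0.94, and MTHFD2 of the same pathway by 0.73. SHMT1, the cytosolic serine hydroxymethyltransferase, named after its value was seen, was lower at -0.58. ASNS (chr7:97852118-97872542, minus strand), which makes asparagine, was at 388, 364 and 394 CPM against 235, 230 and 257 CPM, a log2 fold change of 0.67 ± 0.05. Against untreated set 1 it was raised by 2.98 at 0.2 nM and by 2.31 at 0.01 nM, so most of its distance from untreated was present at the weaker dose.

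Amino acid import and tRNA charging followed. Of 13 amino acid transporters, 9 were higher and 2 were lower, with a median of 0.52. SLC7A11, the cystine importer, was at 228, 226 and 219 CPM at 0.2 nM and at 121, 117 and 123 CPM at 0.01 nM, with 21.8 CPM in untreated set 1. SLC38A1 rose by 0.89 and SLC7A1, the cationic amino acid carrier, by 0.70, while SLC1A3, a glutamate carrier, fell by 0.88. Of 20 cytosolic tRNA synthetases, 18 were higher and 1 was lower, with a median of 0.47. WARS, which charges tryptophan tRNA, was at 155, 145 and 153 CPM against 77.9, 66.9 and 82.0 CPM, a log2 fold change of 1.00 ± 0.05. SARS rose by 0.78 and GARS by 0.66, and the 1 lower member, QARS, for glutamine, fell by 0.52. SHMT1 and QARS ran against their lists.

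Genes that restrain mTORC1, the growth kinase, or its output were split. SESN2, a leucine sensor, was at 216, 227 and 218 CPM at 0.2 nM and at 88.8, 101 and 103 CPM at 0.01 nM, a log2 fold change of 1.18 ± 0.05. DDIT4 rose by 1.08 and EIF4EBP1, the repressor of cap-dependent initiation, by 0.64. SESN3, a FOXO target, fell by 1.03. Of the 8 genes, 3 were higher and 3 were lower, where 23.5% of all genes were higher and 21.4% lower.

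Glutathione and redox genes also went both ways, with 7 of 20 higher and 6 lower, where 23.5% of all genes were higher and 21.4% lower. OSGIN1 rose by 1.15 and SRXN1, the sulfiredoxin, by 0.55. On this list the median log2 fold change was 0.04.

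The endoplasmic reticulum genes went both ways. Of 24 ER chaperone and ER-associated degradation genes, 14 were higher and 10 were lower, so none lay outside the threshold, and the median was 0.17. HSPA5 (chr9:125234853-125241330, minus strand), the main chaperone BiP, was at 888, 893 and 890 CPM at 0.2 nM and at 563, 517 and 563 CPM at 0.01 nM. Untreated set 1 averaged 589 CPM, close to the weaker dose, and the log2 fold change between doses was 0.70 ± 0.03. The sensor ERN1 (IRE1) rose by 1.20, its target XBP1 by 1.04, HERPUD1 of the degradation machinery by 0.94, and SEL1L, which partners the ubiquitin ligase, by 0.74. Among the lower members, named after their values were seen, were the disulfide isomerases PDIA4, PDIA6 and PDIA3 (-0.61, -0.41 and -0.32) and the calcium-binding chaperone CALR (-0.46).

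Ribosome production genes were higher at 0.2 nM, while ribosomal protein mRNAs hardly differed. Of 27 ribosome biogenesis factors, 25 were higher and none was lower, with a median of 0.53. DDX21, a nucleolar helicase, was at 582, 623 and 611 CPM at 0.2 nM and at 305, 298 and 317 CPM at 0.01 nM, a log2 fold change of 0.98 ± 0.04. RRP9 rose by 1.02, NOP16 by 0.91 and WDR43 by 0.91. Of 47 cytosolic ribosomal protein genes, 10 were higher, 3 were lower and 34 did not pass, and the median was 0.03. Among all genes, 23.5% were higher and 21.4% lower. RPL9 had the largest rise, 0.25, and RPS25 the largest fall, -0.23. Translation initiation factors lay between, with 17 of 23 higher, 2 lower and a median of 0.27; EIF5 rose by 0.62 and EIF1, which guards start codon choice, by 0.52.

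Transcripts that host small nucleolar RNAs in their introns, most of which are spliced to RNAs degraded during translation, were among the strongest lists. Of 14, 13 were higher and none was lower, with a median of 0.80. GAS5 (chr1:173863900-173868882, minus strand) was at 397, 367 and 390 CPM at 0.2 nM and at 132, 118 and 137 CPM at 0.01 nM. Untreated set 1 averaged 103 CPM, near the weaker dose. The log2 fold change was 1.58 ± 0.05. ZFAS1 was at 164, 169 and 168 CPM against 53.8, 52.4 and 59.3 CPM (1.60), SNHG17 rose by 1.51 and SNHG5 by 1.41. ZFAS1 is annotated as antisense to a neighbouring gene, and although the library kit keeps strand, the counting setting is not given in the sources used here.

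Secreted factors were mostly higher. Of 12 tested, 9 were higher and none was lower, with a median of 0.95. TSLP, an epithelial cytokine, was at 8.94, 8.35 and 11.5 CPM at 0.2 nM and at 0.765, 0.831 and 0.630 CPM at 0.01 nM, a log2 fold change of 3.66 ± 0.26. TSLP averaged 0.450 CPM in untreated set 1, about the level that a library's floor allows. GDF15, a stress hormone, was at 52.2, 51.2 and 53 CPM against 22.2, 26.6 and 21.6 CPM (1.15), and untreated set 1 averaged 54.2 CPM, like the stronger dose. VEGFA, the angiogenic factor, was at 306, 291 and 286 CPM against 138, 140 and 152 CPM (1.04), and untreated set 1 averaged 106 CPM.

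NF-kB and inflammatory genes were in part higher at 0.2 nM, from a low base. Of 17 tested, 9 were higher, 1 was lower (the chemokine CCL2, -1.32) and 7 did not pass, with a median of 0.58. The list lay below untreated set 1 at both doses, by a median of -1.72 at 0.2 nM and -2.44 at 0.01 nM. The calls of CXCL3 and CCL20 were lost with some single libraries left out (edgeR adjusted p up to 0.057 and 0.14). CXCL8, a neutrophil chemokine, was at 9.08, 7.19 and 8.02 CPM at 0.2 nM and at 1.91, 1.11 and 1.42 CPM at 0.01 nM, while untreated set 1 averaged 71.3 CPM. TRAF1, a survival adaptor, was at 11.6, 16.0 and 16.2 CPM against 3.57, 3.32 and 4.41 CPM. Immediate early genes also lay below untreated set 1: all 20 tested were lower at both doses, by medians of -3.51 and -4.06, where 29.4% and 23.4% of all genes were lower. Between doses, 7 of the 20 were higher, 1 was lower and the median was 0.10. FOSL1, a FOS family member, was at 70.4, 70.9 and 66.2 CPM against 29.7, 28.4 and 28.3 CPM (1.26), and DUSP5, which switches off ERK, rose by 1.05.

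Heat shock genes, a list that includes the mitochondrial chaperones HSPD1 and HSPE1, were lower at 0.2 nM: 14 of 16 fell, none rose, and the median was -0.48. CRYAB (chr11:111908565-111923722, minus strand), a small heat shock protein, was at 101, 95.6 and 104 CPM at 0.2 nM and at 279, 286 and 261 CPM at 0.01 nM. All 3 libraries at the stronger dose were below the other 3, and the log2 fold change was -1.47 ± 0.05. HSPB1, of the same family, was at 368, 368 and 388 CPM against 719, 731 and 689 CPM (-0.93). HSPA1A differed by -1.08, and because HSPA1B (-0.66) is nearly identical the split of reads between them is uncertain. Against untreated set 1 the heat shock list had a median of -0.37 at 0.2 nM and 0.21 at 0.01 nM.

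Lipid synthesis fell as well. Of 23 genes of cholesterol synthesis and uptake, 20 were lower and none was higher, with a median of -0.51. STARD4, a sterol carrier, was at 16.5, 19.7 and 17.8 CPM at 0.2 nM and at 42.1, 44.2 and 38.3 CPM at 0.01 nM, a log2 fold change of -1.20 ± 0.09. INSIG1, the sterol-sensing brake on SREBP, was lower by -1.08, EBP by -0.99 and IDI1 of the isoprenoid pathway by -0.83. Fatty acid synthesis genes were lower in 8 of 10 with none higher. FADS2, a desaturase, was at 68.4, 71.2 and 68.2 CPM against 180, 183 and 178 CPM (-1.38), and SCD was lower by -0.58. Both lipid lists ran below untreated set 1 at 0.2 nM, by medians of -0.94 and -0.23.

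Cell cycle genes were lower at the stronger dose. In S phase genes, 21 of 24 were lower and 1 was higher, with a median of -0.38; in G2 and mitosis genes, 23 of 26 were lower and none was higher, with a median of -0.26. RRM2, which makes deoxynucleotides, was at 129, 141 and 136 CPM at 0.2 nM and at 242, 238 and 238 CPM at 0.01 nM. PCNA, the replication clamp, was at 150, 149 and 148 CPM against 254, 250 and 241 CPM (-0.74). Neither gene overlapped between the doses. Untreated set 1 averaged 191 CPM for PCNA, between the doses, and 23 of the 24 S phase genes were higher at 0.01 nM than in that set, with a median of 0.55, where 24.4% of all genes were higher. At 0.2 nM, 14 of the 24 were higher than in that set and 5 were lower, with a median of 0.21, where 32.8% and 29.4% of all genes were. KIF20A, a kinesin of cytokinesis, differed by -0.72, DLGAP5 of the spindle by -0.65 and MKI67, the proliferation marker, by -0.61. Of 15 G1 cyclins and inhibitors, 9 were lower and 3 higher; the inhibitors CDKN2C, CDKN1C and CDKN2B were among the lower (-1.26, -0.99 and -0.93). Replication-dependent histone genes, which share reads among near-identical copies, were lower in 6 of 9, at levels below 12 CPM for the 4 with the largest change. Their usual mRNAs lack long poly(A) tails, and tailed forms were not told apart from them here.

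Mitochondrial and energy genes were lower by small amounts. All 13 mitochondrially encoded mRNAs were lower, by a median of -0.23, and the largest difference was in MT-ND2, at -0.31. Of 26 nuclear genes of the respiratory chain, 17 were lower and none was higher (median -0.17). Glycolysis and hypoxia genes were lower in 14 of 24 and higher in 4, with a median of -0.28, and the exceptions were large. HK2 (chr2:74833981-74893359, plus strand), which phosphorylates glucose, was at 109, 105 and 103 CPM at 0.2 nM and at 37.0, 31.0 and 34.2 CPM at 0.01 nM, a log2 fold change of 1.63 ± 0.07. TXNIP, a glucose-responsive inhibitor of glucose uptake, was at 66.7, 68.2 and 66.5 CPM against 15.2, 12.6 and 15.1 CPM (2.23), and its relative ARRDC4 rose by 2.20. ALDOC and ENO2 were lower (-1.68 and -0.80). Mitochondrial chaperones and proteases went the other way, with 8 of 13 higher and 3 lower; DNAJA3 rose by 0.74 and LONP1 by 0.71, while HSPE1, which is also a heat shock gene, fell by 0.63. Proteasome subunits were lower in 17 of 28 and higher in 1, with a median of -0.14 and PSMB5 lowest at -0.41.

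**Figure D3:**
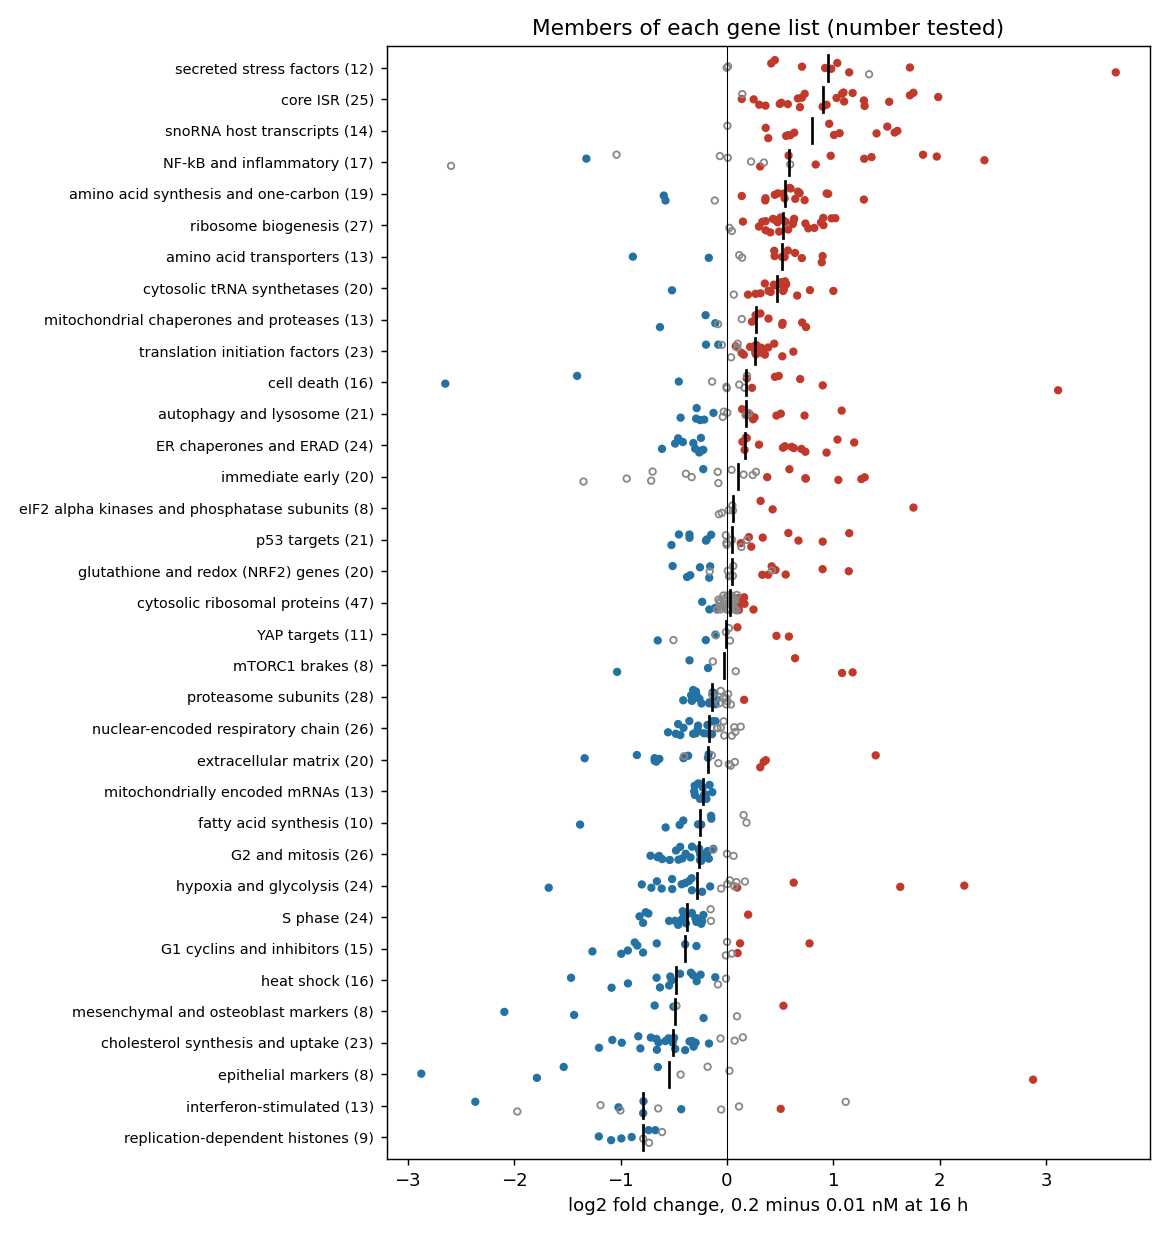
Log2 fold change between 0.2 and 0.01 nM at 16 h (horizontal axis) for each member of the gene lists with at least 8 genes tested (rows, number tested in brackets), with filled points for adjusted p under 0.05 and black bars at list medians. Secreted factors, core ISR genes and snoRNA host transcripts lie furthest right (medians 0.95, 0.90 and 0.80). Epithelial markers, interferon-stimulated genes and histones lie furthest left (medians -0.54, -0.78 and -0.79), followed by cholesterol genes (-0.51).

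Death, p53 and degradation genes were mixed, where 23.5% of all genes were higher and 21.4% lower. Of 16 cell death genes, 7 were higher and 3 lower. TNFRSF10B, the death receptor DR5, was at 163, 173 and 183 CPM at 0.2 nM and at 88.3, 95 and 94.8 CPM at 0.01 nM (0.90). BMF, a BH3-only killer of the BCL2 family, was at 3.83, 3.25 and 3.01 CPM against 21.5, 22.6 and 18.9 CPM (-2.65 ± 0.20), with 25.7 CPM in untreated set 1. The receptor thus rose while this BH3-only gene fell, but other BH3-only genes went both ways. PMAIP1 and BID were higher (0.69 and 0.45), BIK and BCL2L11 were lower (-1.41 and -0.45), and BBC3 did not pass. Of 21 p53 targets, 8 were higher and 7 lower, and CDKN1A, the best known of them, differed by -0.01. Autophagy and lysosome genes were higher in 9 of 21 and lower in 6; MAP1LC3B, the autophagosome marker LC3B, was at 271, 268 and 260 CPM against 125, 121 and 132 CPM (1.08). YAP targets were higher in 3 of 11 and lower in 3, close to the shares of all genes. Among them CTGF stood at 199 to 217 CPM against 130 to 153 CPM (0.58), with 2976 CPM in untreated set 1.

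Matrix and identity genes were lower more often than higher. Of 20 extracellular matrix genes, 10 were lower and 4 higher, with a median of -0.17 that was -0.29 without replicate 2 at 0.2 nM. TNC, tenascin C, was at 484, 520 and 495 CPM at 0.2 nM and at 196, 178 and 195 CPM at 0.01 nM (1.40), with 142 CPM in untreated set 1. COL1A1, the main bone collagen, was at 828, 859 and 849 CPM against 1284, 1412 and 1363 CPM (-0.68), and LUM fell by 1.34. Of 8 mesenchymal and osteoblast markers 5 were lower and 1 was higher, VIM at -0.50 among the former. Interferon-stimulated genes were lower in 5 of 13 and higher in 1. IFIT1, an antiviral RNA sensor, was at 0.852, 1.04 and 0.573 CPM against 3.31, 5.12 and 4.72 CPM (-2.37). Of 8 epithelial markers 4 were lower and 1 higher: ESRP1, a splicing regulator, was at 4.40, 7.30 and 5.88 CPM against 0.765, 0.415 and 1.26 CPM (2.88). Of 5 endothelial markers 2 were lower and none higher; of 2 blood and immune markers tested, none passed.

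Among genes of at least 20 CPM in the higher group, the 8 with the largest rises were OLAH, MXD1, TXNIP, ARRDC4, SPX, CLDN1, SLC22A15 and TRIB3. OLAH, a thioesterase of fatty acid synthesis, was at 29.1, 31.3 and 32.1 CPM at 0.2 nM and at 3.31, 2.49 and 2.36 CPM at 0.01 nM, a log2 fold change of 3.48 ± 0.17. The untreated mean was 3.18 CPM in set 1, so OLAH was raised at the stronger dose and not at the weaker. SPX, a peptide hormone, was at 150, 157 and 164 CPM against 35.8, 33.8 and 37.3 CPM (2.14), and untreated set 1 averaged 5.08 CPM, so both doses were above it. MXD1, a MAX partner that opposes MYC, was at 27.4, 31.1 and 28.2 CPM against 5.23, 5.68 and 6.61 CPM (2.32). CLDN1, a tight junction protein, was at 94.7, 104 and 111 CPM against 22.6, 22.9 and 29 CPM (2.07), and SLC22A15, an organic cation carrier, rose by 2.06.

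The 8 with the largest falls were MIAT, BMF, IGFBP5, PTP4A3, NYNRIN, C10orf10, ACKR3 and LBH. MIAT (chr22:26646428-26676475, plus strand), a long noncoding RNA, was at 7.52, 5.80 and 9.17 CPM at 0.2 nM and at 58.8, 70.8 and 62.3 CPM at 0.01 nM, a log2 fold change of -3.11 ± 0.15. IGFBP5, which binds insulin-like growth factors, was at 10.4, 11.5 and 11.3 CPM against 64.5, 80.7 and 57.0 CPM (-2.61). Untreated set 1 held more of both, with 163 CPM of MIAT and 386 CPM of IGFBP5, so the order was untreated, 0.01 nM, then 0.2 nM. LBH, a transcription cofactor, followed the same order at 349 CPM in untreated set 1, 76.2, 90.2 and 78.4 CPM at 0.01 nM and 20.4, 20.8 and 18.1 CPM at 0.2 nM. PTP4A3, a phosphatase, was at 6.25, 6.72 and 6.45 CPM against 35.9, 36.3 and 33.8 CPM (-2.45). ACKR3, a scavenger receptor for chemokines, and C10orf10 were lower (-2.18 and -2.31), as was NYNRIN (-2.43).

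**Figure D4:**
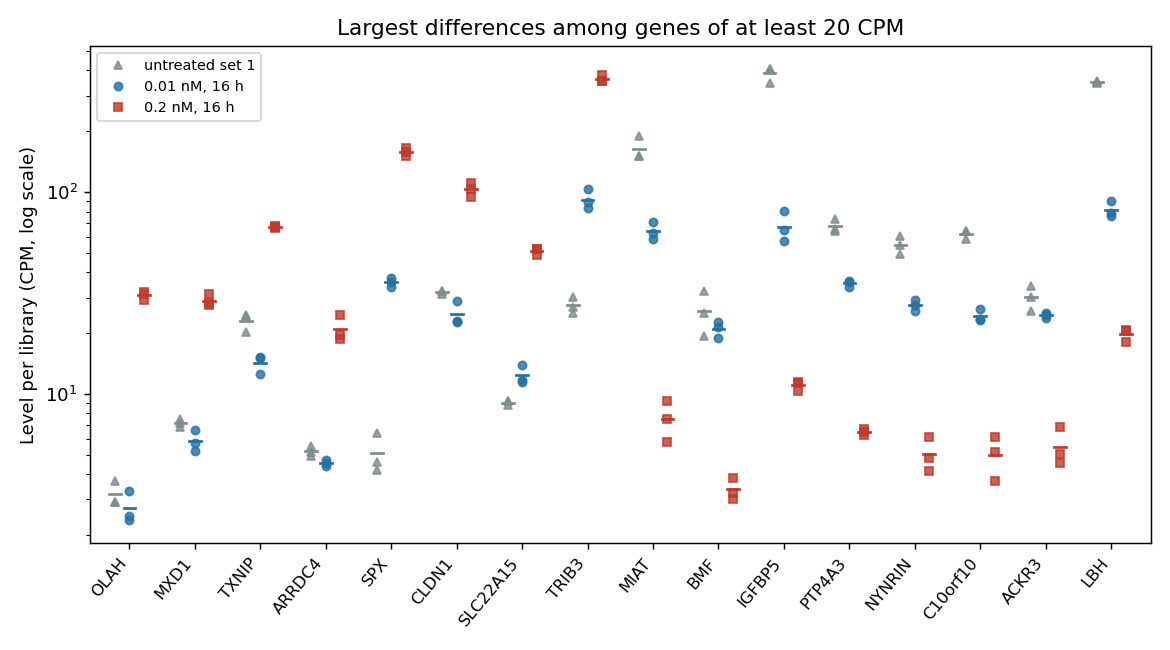
Level per library (CPM, log scale) of the 8 genes with the largest rises and the 8 with the largest falls among genes of at least 20 CPM in the higher group, for untreated set 1 (triangles), 0.01 nM (circles) and 0.2 nM (squares) at 16 h, with lines at means of 3 libraries. OLAH, MXD1 and CLDN1 at 0.01 nM sit near untreated set 1, while MIAT, IGFBP5 and LBH step down from untreated to 0.01 to 0.2 nM.

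At lower levels, folds rest on few counts. SPRR2D, a cornified envelope protein, had 64 counts over the 3 libraries at 0.2 nM and 2 at 0.01 nM, a 30.3-fold difference with a 95% counting interval of 8.04 to 255. SPDYE2B had 116 counts against 0, at least 36.6-fold higher when the group at 0 is set to 3 counts in all, but it belongs to a near-identical family whose reads cannot be assigned with certainty. AS3MT, a methyltransferase, had 28 counts against 0, at least 8.83-fold higher, and without replicate 2 at 0.2 nM its adjusted p was 0.085 (edgeR). Its level at 0.2 nM was 1.17 ± 0.98 CPM (SD), so its libraries were spread widely. The 0 at 0.01 nM also stood apart from 0.875 CPM at 8 h and 0.895 CPM at 24 h at that dose, and from 0.722 CPM in untreated set 1. KLHDC7B, MYCT1 and MILR1 rose by 2.95, 2.66 and 3.01. DUX4, a repeat-encoded factor whose copies share reads, was at 10.1, 10.8 and 7.59 CPM against 0.127, 1.52 and 1.57 CPM. Among the falls, EDN2, an endothelin, was at 2.13, 1.51 and 2.29 CPM against 18.1, 16.3 and 17.3 CPM (-3.15), and DRD1, a dopamine receptor, was at 1.42, 1.86 and 0.860 CPM against 10.3, 12.1 and 7.71 CPM (-2.83). SYNPO2L, a muscle actin-binding protein, was lower by -2.84 and FLVCR2, a choline carrier, by -2.77. ALPP, placental alkaline phosphatase, was lower by -3.63, and by -7.97 when replicate 2 at 0.2 nM, its only library with counts at that dose, was left out.

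The same doses were sequenced at 8 and 24 h, so the dose effect at 16 h was tested against the dose effects at its neighbours. It differed from that at 8 h in 1959 genes (10.9% of 18040) and from that at 24 h in 1774 genes (9.83%). At 8 h, 6626 genes (36.7%) differed between the doses, and at 24 h, 9290 (51.5%). The time differences fell on particular groups.

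Core ISR genes had a median dose effect of 0.96 at 8 h, 0.90 at 16 h and 1.26 at 24 h. From 8 to 16 h the dose effect fell in 9 of the 25 and rose in 1, with a median difference of -0.17, against 5.41% and 5.45% of all genes. From 16 to 24 h the dose effect rose in 16 of the 25 and fell in none, against 5.27% and 4.57% of all genes. TRIB3 at 0.2 nM was 362 ± 15.8 CPM at 16 h and 353 ± 11.2 CPM at 24 h (SD), whereas at 0.01 nM it was 91.7 ± 10.3 and then 54.3 ± 6.55 CPM. For TRIB3 the widening thus came with a lower level at the weaker dose, a step over time that was not tested. ASNS had a dose effect of 1.22 at 8 h, 0.67 at 16 h and 1.11 at 24 h, and both steps passed the test; its level at 0.01 nM went from 140 to 240 to 176 CPM while at 0.2 nM it went from 324 to 382 to 380 CPM.

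The median dose effect of the ER chaperone and degradation genes was -0.21 at 8 h, with 6 of 24 higher and 13 lower, and 0.17 at 16 h, with 14 higher and 10 lower. Of all genes, 18.9% were higher and 17.8% lower at 8 h, and 23.5% and 21.4% at 16 h. The difference between these times was positive in 11 of 24 and negative in none, against 5.45% and 5.41% of all genes. HSPA5 was lower at 0.2 than at 0.01 nM at 8 h, at 787 ± 2.68 against 886 ± 23.2 CPM, and higher at 16 h, at 890.0 ± 2.57 against 548 ± 26.3 CPM. Its dose effect rose by 0.87 (edgeR adjusted p = 4.9e-20). The weaker dose thus held less HSPA5 at 16 h than at 8 h, a step over time that was not tested.

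Ribosome biogenesis genes had a median dose effect of 0.24 at 8 h, 0.53 at 16 h and 0.80 at 24 h. The step from 8 to 16 h was positive in 20 of 27, against 5.45% of all genes. The step to 24 h was positive in 17, against 5.27%. Ribosomal protein genes followed later: 20 of 47 were lower and none higher at 8 h, where 17.8% of all genes were lower and 18.9% higher. At 24 h, 41 were higher and none lower, with a median of 0.20, where 26.9% of all genes were higher and 24.6% lower. Heat shock genes lost part of their deficit from 8 h (median -0.66) to 16 h (-0.48). The difference was positive in 7 of 16 and negative in 2, against 5.45% and 5.41% of all genes. HSPA1A was at 33.1 ± 5.07 CPM at 0.2 nM after 8 h and at 84.7 ± 6.58 CPM after 16 h, against 142 ± 4.56 and 180.0 ± 4.51 CPM at 0.01 nM.

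S phase and mitosis genes parted after 16 h. The S phase median went from -0.38 at 16 h to 0.04 at 24 h, with a positive difference in 18 of 24. The G2 and mitosis median went from -0.26 to -0.85, with a negative difference in 23 of 26. Of all genes, 5.27% had a positive and 4.57% a negative difference. KIF20A stayed at 58.3 ± 3.0 and 56.3 ± 2.45 CPM at 0.2 nM and went from 96.1 ± 2.83 to 158 ± 2.7 CPM at 0.01 nM. PCNA went from 248 ± 6.76 to 204 ± 3.06 CPM at 0.01 nM and from 149 ± 1.22 to 155 ± 9.79 CPM at 0.2 nM. In both genes the larger move was at the weaker dose.

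**Figure D5:**
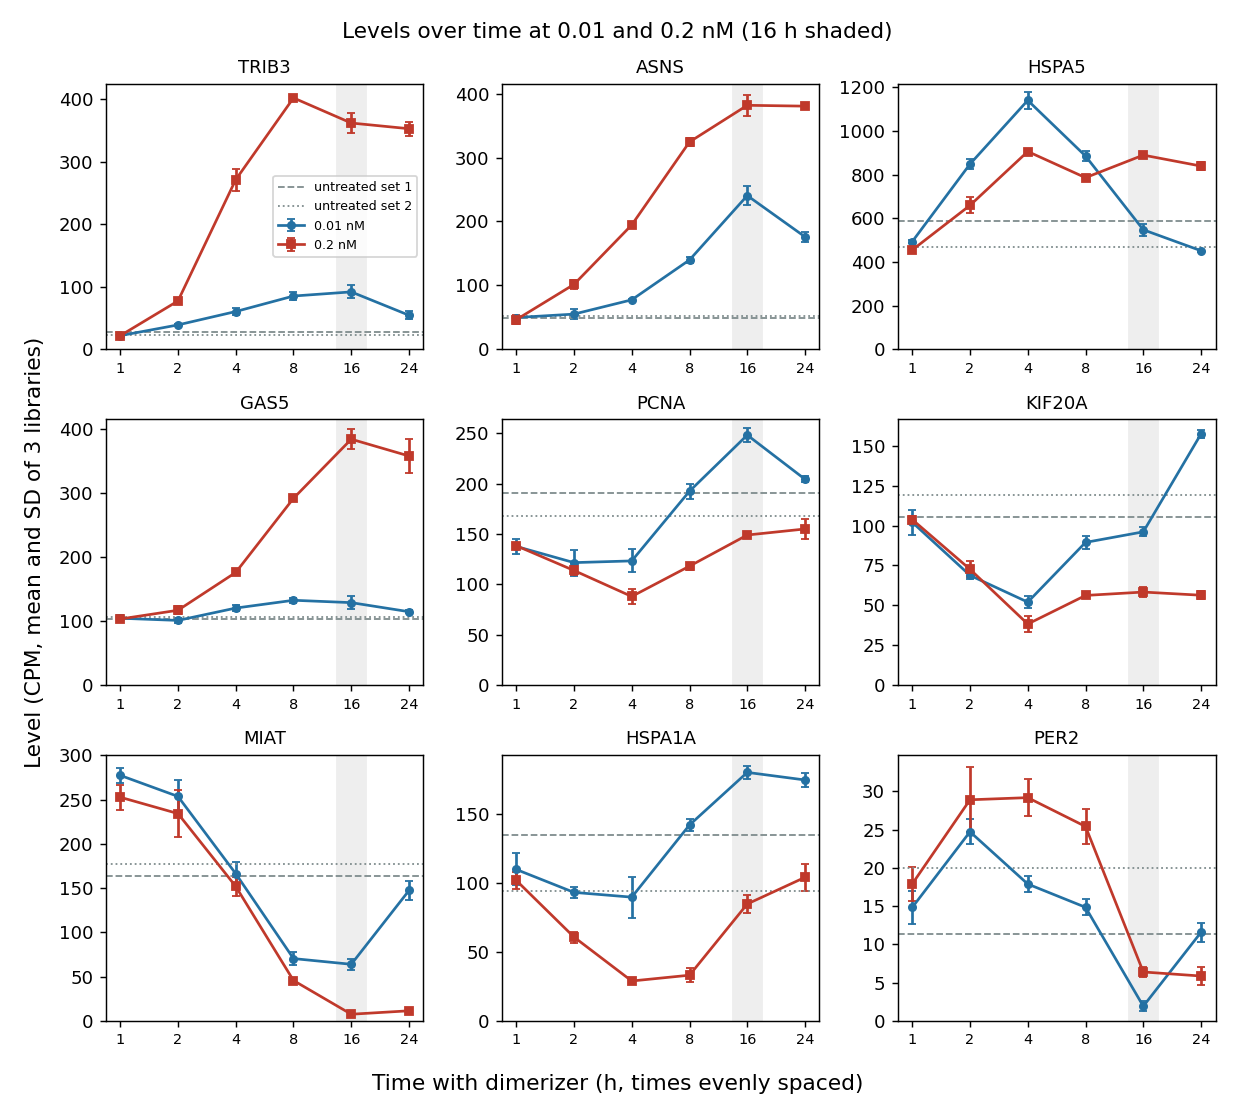
Mean level with SD of 3 libraries (CPM) over the 6 times at 0.01 nM (circles) and 0.2 nM (squares) for 9 genes, with untreated sets 1 and 2 as dashed and dotted lines and 16 h shaded. HSPA5 crosses between 8 and 16 h, MIAT falls to 7.50 CPM at 0.2 nM by 16 h, and PER2 is lowest at 16 h at 0.01 nM, at 1.92 CPM.

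Single genes with late changes included MIAT, whose dose effect went from -0.63 at 8 h to -3.11 at 16 h, and PTP4A3, from 0.25 to -2.45. For PTP4A3 the level at 0.01 nM went from 13.2 to 35.4 CPM while at 0.2 nM it went from 15.7 to 6.47 CPM, so the doses moved in opposite directions. HK2 was at 119 ± 7.12 CPM at 0.2 nM after 8 h and at 106 ± 2.85 CPM after 16 h, and went from 77.2 ± 6.5 to 34.0 ± 2.97 CPM at 0.01 nM. The period genes of the circadian clock, PER1, PER2 and PER3, were higher at 0.2 nM at 16 h (0.81, 1.70 and 0.36) and lower at 24 h (-0.77, -0.99 and -1.42). PER2 was at 5.68, 6.61 and 6.88 CPM at 0.2 nM and at 2.55, 1.94 and 1.26 CPM at 0.01 nM after 16 h. After 24 h it averaged 5.86 and 11.6 CPM. All 3 genes went up at 0.01 nM between 16 and 24 h, PER1 from 19.5 to 66.5 CPM and PER3 from 21.1 to 99.6 CPM, while at 0.2 nM PER1 went from 34.1 to 38.9 CPM and PER3 from 27.1 to 37.1 CPM.

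Set against untreated set 1, 11209 genes (62.1%) differed at 0.2 nM and 8615 (47.8%) at 0.01 nM after 16 h. Of all genes, 32.8% were higher and 29.4% lower at 0.2 nM, and 24.4% and 23.4% at 0.01 nM. At least a 2-fold change was seen in 1636 higher (9.07%) and 1918 lower (10.6%) genes at 0.2 nM and in 949 higher (5.26%) and 798 lower (4.42%) genes at 0.01 nM. Both contrasts share the libraries of untreated set 1, which stood apart in mitochondrial mRNA and in immediate early genes. The contrast between doses does not use their means, although they enter the fit that sets the spread.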

How the data were processed

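RNA of 60 U2OS Dmr-PERK libraries was sequenced, and 6 of them (0.195 nM in the sample labels, written 0.2 nM in the text, and 0.01 nM, both at 16 h) form the comparison. Per the labels' protocols, libraries were made with a directional kit and run on a NovaSeq. The authors deposited estimated counts per gene (expected counts, rounded here to whole numbers) and TPM, which pairs gene identifiers with symbols. Per the submitters' processing notes, Salmon 0.9.1, FastQC 0.11.5 and GRCh38 were named, with no roles given. Of 57665 genes, 57068 (99.0%) matched GENCODE 29, the source of positions.

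All 60 libraries entered 1 fit (edgeR 4.0.16, R 4.3.3, TMM, filterByExpr, 20 group means, 40 residual degrees of freedom, no block). Genes were called at Benjamini-Hochberg adjusted p under 0.05. An SE is the log2 fold change divided by the square root of F. CPM of genes are of library totals scaled by TMM, and floors are of unscaled totals. The common dispersion was 0.00129. Alternatives used DESeq2 1.42.0, limma 3.58.1 on log2(TPM + 1) and log2(TPM + 0.1), other scaling, filters and library sets. The count tests were tested on simulated data. Floors and intervals cover counting error only.

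The 37 gene lists, members and tests were chosen with earlier results of these data known. Named genes were the 12 largest rises and falls at 1 CPM or more without overlap, the 8 largest at 20 CPM or more, up to 4 called members per list plus 9 set genes (ATF4, DDIT3, ATF3, TRIB3, CHAC1, ASNS, PPP1R15A, EIF2AK3, HSPA5), and the 6 largest differences in each direction between times at 5 CPM or more. JDP2, CEBPG, CEBPB, VIM, CDKN1A and others beyond this rule were picked after their values were seen. Some genes are not reported here.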

Additional observations from a re-analysis of the deposited data

Results flagged for a closer look

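The difference of the dose effect between times was tested itself in the edgeR fit, and 22 of the 24 genes named by their size are given here as log2 differences, without 2 readthrough genes whose reads are shared with both of their neighbours. From 8 to 16 h the dose effect rose by 1.77 in ESM1, 1.22 in TMEM71, 1.03 in CHRNA9, 1.03 in HSPA1A, 1.00 in ANTXR2 and 1.00 in HK2. It changed by -2.69 in PTP4A3, -2.48 in MIAT, -2.37 in CSRP3, -2.37 in GCOM1 and -2.15 in BTN2A2. From 16 to 24 h it rose by 3.04 in GAGE2E, 1.86 in FLRT1, 1.79 in MMP3, 1.69 in INSC and 1.42 in KRT34. It changed by -2.69 in PER2, -1.78 in PER3, -1.66 in CXCL14, -1.61 in LSP1, -1.58 in PER1 and -1.52 in IGFBP5. GCOM1 is a readthrough gene and GAGE2E has near-identical copies, so their reads are shared by estimation and their values are uncertain. GAGE2E at 0.2 nM and 16 h was at 4.83, 0 and 8.60 CPM, so its replicates did not agree. With 1 library left out, the adjusted p rose to 0.05 or more for ESM1, TMEM71, CHRNA9, GAGE2E, FLRT1 and CXCL14.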

How the results depend on the processing

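No result changed direction with a call under any alternative. The number of genes at least 2-fold lower was 342 by limma on log2(TPM + 1), against 834 from counts. Adding 1 before the log shrinks low values, and with 0.1 added it was 784. The number of genes called at 16 h ran from 6716 to 8085 over the alternatives that kept all 6 libraries, unfiltered counts giving 7221 and DESeq2 7756. With 1 library left out at a time it was 7178 to 7523, with 367 to 422 at least 2-fold higher and 771 to 851 at least 2-fold lower. The calls were then 3685 to 3920 higher and 3437 to 3656 lower, 1500 to 1805 for the difference from 8 to 16 h, 1384 to 1672 for that from 16 to 24 h, 10454 to 11212 for 0.2 nM against untreated set 1 and 7733 to 8633 for 0.01 nM. The alternatives against untreated were added after the data were seen. Of the values of named genes under alternatives, 2686 kept their side of the threshold, 52 lost it and 2 gained it. Of the list medians, 507 stayed within the spread between libraries and 48 moved by more. Of these moves, 14 came with limma on log2(TPM + 1) and 13 on log2(TPM + 0.1). The median of the mTORC1 list was -0.024, and ran from -0.063 to 0.183 with 1 library left out, so its sign was not stable.

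Replicates with the same number correlated in their deviations by 0.209, 0.087 and 0.013, and not every library correlated best with its own number, so the numbers were not taken as pairs. With a replicate block, 8085 genes were called over all 60 libraries and 7552 over the 6 alone, against 7671 without the block in the 6.

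Depth limits genes near 0.356 to 0.483 CPM (of unscaled totals), where absence cannot be told from a low level. Fewer mRNAs per cell cannot be told apart from a changed share of the library, since CPM are relative to each library's scaled total.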
